A study of Homo sapiens with 10 samples.

Results

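Neural progenitor cells (NPCs) that lack STAMBP and were given STAMBP again were compared with knockout cells that were not. H1, the parent line, is an established line of human embryonic stem cells. The comparison takes 6 of the 10 RNA-seq libraries of the series by their labels: the 2 libraries of knockout cells with STAMBP re-expressed (KO+STAMBP) against the 4 libraries of the STAMBP knockout lines KO1 and KO2, 2 of each line, with both lines weighted equally. It covers every gene that passed a filter on low counts, 21063 of 60898 rows. All 6 libraries carry the STAMBP knockout per the labels, and the KO+STAMBP pair is labelled as having STAMBP added. Whether this pair also differs from the rest in other ways is not given, and effects of such differences cannot be told apart from those of STAMBP. The labels give no promoter or vector for the added STAMBP and no age or passage wording beyond the mark P3, which is in the titles of all libraries. They also do not say which knockout line received STAMBP, whether each line is a clone, or whether the libraries within a group are separate cultures. P-values here measure only library-to-library spread, which can be technical. Unedited cells (WT, 2 libraries) are given beside some results as a level only, and KO+STAMBP was not tested against WT here. The libraries labelled KO+CFLAR entered the shared estimate of spread and are not described.

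STAMBP, also called AMSH, is a deubiquitinase that removes ubiquitin chains from membrane receptors on endosomes, where it binds the STAM adaptor of the endosomal sorting machinery (ESCRT). Sorting by ESCRT carries ubiquitinated receptors to the lysosome, and loss-of-function variants of STAMBP cause a syndrome with microcephaly and capillary malformations. NPCs of the forebrain divide as radial glia, which express SOX and HES genes, and give rise to excitatory cortical neurons through a cascade of basic helix-loop-helix factors. Skin-like and other surface epithelia use instead keratins, desmosomes, tight junctions and the transcription factors that drive them.

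Totals ran from 16500792 to 19562114 counts in the 6 libraries, and levels below are CPM, counts scaled to a common library size after TMM normalisation, given as mean ± SD with n = 4 for the knockout and n = 2 for KO+STAMBP and WT. A count of 0 in a library allows up to 0.155 to 0.198 CPM, with 3 counts as the floor. Folds called "at least" are computed against 3 counts summed over the group, and where a group holds only 1 to 3 counts of a gene its ratio carries a 95% counting interval. These floors and intervals cover counting error only. In a principal component analysis of the 6 libraries 91.2% of the variance lay on the first component, with the knockout libraries at -100.3 to -102 and the KO+STAMBP libraries at 202 and 203. The share of counts from mitochondrial genes was 3.39 to 3.69% in the knockout libraries and 4.96 to 5.06% in KO+STAMBP.

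The labelled cell type was checked against its defining markers. In the knockout libraries PAX6, a forebrain progenitor factor, and NES, a progenitor intermediate filament, were at 204 to 212 and 652 to 675 CPM. SOX1 and FABP7, genes of early neuroectoderm and radial glia, were near 0, at 0.391 to 0.661 and 0.165 to 0.652 CPM, and SOX2 was at 26.7 to 29.96 CPM. The epithelial markers KRT8, KRT18, CDH1 and EPCAM were at 2482 to 2683, 1306 to 1367, 1109 to 1195 and 179 to 190.4 CPM in the same libraries. The knockout libraries therefore go against the NPC label in part, and are named by genotype below. In KO+STAMBP, SOX1, SOX2, PAX6 and FABP7 were at 56.0 to 56.5, 188 to 192, 191 to 196 and 226 to 231 CPM, and KRT8 and CDH1 at 34.8 to 36.4 and 3.92 to 4.54 CPM. NES was at 468 to 488 CPM there, and the neuron markers DCX and NEUROD6 and the choroid plexus marker TTR were at 811 to 821, 657 to 680.1 and 328 to 332 CPM. The other neuron markers checked, TUBB3 and STMN2, were at 1053 to 1057 and 657 to 666 CPM in KO+STAMBP. In the knockout libraries DCX and NEUROD6 were at 1.19 to 2.22 and 0 to 0.0551 CPM. TUBB3 and STMN2 were at 363 to 387 and 120 to 124 CPM there. The KO+STAMBP libraries thus hold neuron markers and TTR beside markers of NPCs, and the knockout libraries hold TUBB3 and STMN2 at lower levels. In bulk RNA, fewer cells of a type and less RNA per cell cannot be told apart.

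STAMBP itself (ENSG00000124356, chromosome 2, 73828916 to 73873659, GRCh38) was at 19.5 and 16.9 CPM in KO1, 19.2 and 18.9 CPM in KO2, and 40.4 and 45.3 CPM in KO+STAMBP. The groups do not overlap, and STAMBP was 2.30-fold higher in KO+STAMBP (SE of 0.07 on the log2 scale, adjusted p = 1.5e-09). WT lay at 45.3 ± 2.71 CPM. The knockout libraries still hold STAMBP counts, and the sources used here do not say which part of the gene was edited or whether reads of the added STAMBP are counted. CFLAR (ENSG00000003402, chromosome 2, 201116104 to 201176687, GRCh38), an inhibitor of caspase-8 activation, was at 257 and 248 CPM in KO1, 247 and 264 CPM in KO2, and 32.1 and 32.1 CPM in KO+STAMBP. It fell by 2.98 ± 0.05 on the log2 scale (adjusted p = 1.15e-15), to a level beside the 32.3 ± 2.68 CPM of WT.

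The groups differed across most of the transcriptome. Of 21063 genes, 16403 (77.9%) were called at an adjusted p under 0.05 in edgeR's quasi-likelihood test, 8441 (40.1%) higher and 7962 (37.8%) lower in KO+STAMBP, and the unadjusted p was under 0.05 for 16633. The 2 groups of libraries did not overlap for 17094 genes (81.2%). Of the genes called, 9783 (46.4% of those tested) changed at least 2-fold: 5254 (24.9% of those tested) rose and 4529 (21.5%) fell at least 2-fold. At least 16-fold, 1119 rose and 1094 fell, and at least 256-fold 119 rose and 186 fell. The median log2 change was 0.04 with quartiles at -0.85 and 1.07, and the median size of change was 0.95 against a median SE of 0.11. Scaling by library size alone raised the median log2 change by 0.21. Counts of list members below are to be read against these backgrounds: 40.1% of tested genes rose and 37.8% fell.

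**Figure D1:**
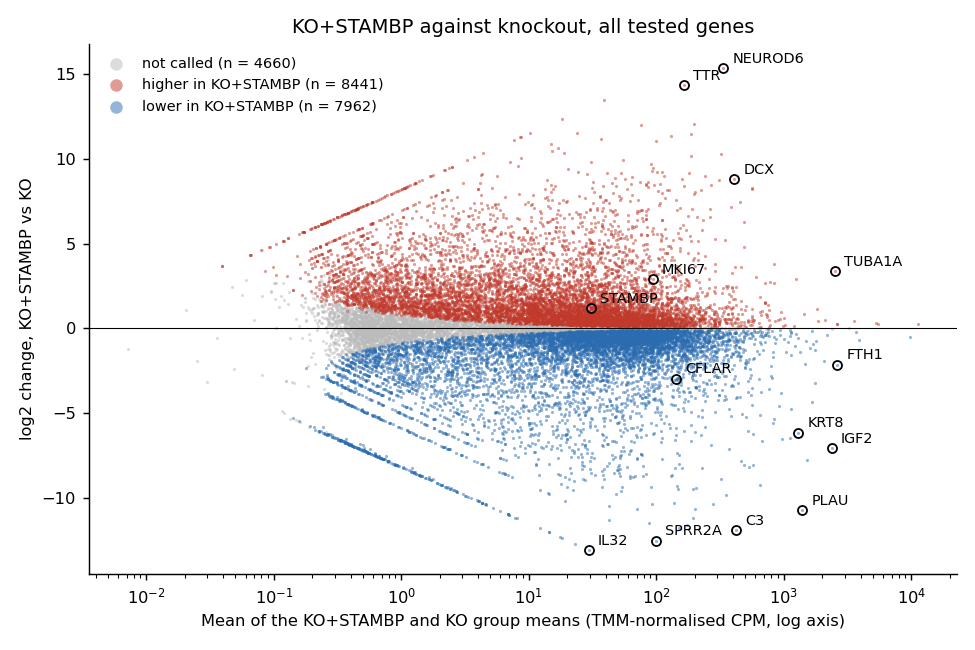
Log2 change in KO+STAMBP against the knockout (y axis) by the mean of the 2 group means in TMM-normalised CPM (x axis, log) for 21063 tested genes, with 8441 higher in red, 7962 lower in blue and the rest in grey. IGF2 and FTH1 lie among the most abundant genes that fell and TUBA1A among the most abundant that rose.

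Genes of excitatory cortical neurons rose in KO+STAMBP. All members of the list of cortical neuron transcription factors were called higher: 27 of 27 tested genes rose and 0 fell (median log2 7.57, or 7.44 with the 4 members at 3 counts or fewer set at the floor). NEUROD6 (ENSG00000164600, chromosome 7, 31337461 to 31340894, GRCh38), a factor of maturing excitatory neurons, had 1 count over the 4 knockout libraries together and 669 ± 16.3 CPM in KO+STAMBP, a ratio of 44104 (higher in KO+STAMBP, 95% interval 7915 to 1742100). In WT it was at 149.9 ± 4.98 CPM. NEUROD2, which acts beside it, went from 0.149 ± 0.105 to 372 ± 10.8 CPM (log2 11.49 ± 0.11, adjusted p = 1.21e-18), and NEUROD1 had 1 knockout count and 29.9 ± 1.72 CPM in KO+STAMBP, a ratio of 1974 (higher in KO+STAMBP, 95% interval 354 to 78017). BHLHE22 went from 0.0871 ± 0.0731 to 263 ± 7.34 CPM and NEUROG2, the proneural factor that starts the cascade, from 0.214 ± 0.0412 to 180.1 ± 10.6 CPM (log2 11.39 ± 0.11 and 9.68 ± 0.10). Each of these factors was at or near 0 in all 4 knockout libraries.

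The neuronal cytoskeleton followed. On that list 29 of 30 tested genes rose and 1 fell (median log2 3.21), and the summed level of the members was 3144 to 3201 CPM in the knockout libraries and 22456 to 22493 CPM in KO+STAMBP. DCX, which binds microtubules in migrating neurons, was at 1.93 and 2.22 CPM in KO1, 1.19 and 1.96 CPM in KO2, and 821 and 811 CPM in KO+STAMBP. The groups did not overlap, with a change of 8.81 ± 0.07 on the log2 scale, and the WT level was 504 ± 26.4 CPM. GAP43, a growth cone protein, went from 3.96 ± 0.576 to 523 ± 3.93 CPM, STMN4 from 1.24 ± 0.375 to 153 ± 2.64 CPM, and MAPT, the tau gene, from 5.45 ± 0.306 to 464 ± 1.33 CPM. Several abundant members were well above 0 in the knockout already. The neuronal tubulin TUBA1A went from 441 ± 7.69 to 4593 ± 2.6 CPM and TUBB2B from 110.2 ± 2.56 to 1558 ± 5.5 CPM. The microtubule-associated MAP1B and MAP2 rose by 2.89 ± 0.03 and 2.66 ± 0.03 on the log2 scale, and DPYSL3 and STMN1 by 2.73 ± 0.03 and 3.04 ± 0.04. NEFH, the heavy neurofilament subunit, was the exception and fell from 7.9 ± 0.296 to 2.68 ± 0.365 CPM.

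Synaptic genes rose as well. For the presynaptic list 26 of 26 tested genes rose and 0 fell (median log2 3.91), and for the postsynaptic list 23 of 25 tested genes rose and 2 fell (median log2 4.47). SLC17A7, which loads vesicles with glutamate, went from 0.335 ± 0.0421 to 127 ± 1.8 CPM (log2 8.55 ± 0.09, adjusted p = 2.71e-18). CPLX2 and SYT4, of vesicle release, rose by 8.52 ± 0.09 and 7.99 ± 0.09 on the log2 scale. Among glutamate receptors, GRIA2 was at 0.33 and 0.261 CPM in KO1, 0.331 and 0.346 CPM in KO2, and 389 and 361 CPM in KO+STAMBP, without overlap and with a log2 change of 10.17 ± 0.12. GRIA1, GRIA3 and GRIK3 rose by 6.57 ± 0.05, 6.89 ± 0.10 and 8.47 ± 0.09. GRIN2A fell from 18.9 ± 0.748 to 5.06 ± 0.503 CPM and GRIA4 from 13.2 ± 0.678 to 8.46 ± 1.23 CPM. In WT they were at 22.9 ± 0.334 and 17.8 ± 0.385 CPM, above both groups. CNTNAP2, an adhesion protein that clusters channels, went from 229 ± 5.55 to 1454 ± 7.76 CPM, beside 650.2 ± 15.1 CPM in WT.

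All tested members of the list of voltage-gated channel subunits were called higher (24 of 24 tested genes rose and 0 fell, median log2 3.73). The calcium channel gene CACNA1E went from 1.12 ± 0.253 to 233 ± 4.86 CPM, the sodium channel gene SCN2A from 0.695 ± 0.284 to 51.3 ± 0.0367 CPM and its neighbour SCN3A from 1.15 ± 0.312 to 91.2 ± 1.77 CPM. SCN1A, an adult neuronal sodium channel, rose from 0.239 ± 0.147 to 12.0 ± 1.16 CPM and stood at 123 ± 7.96 CPM in WT. Axon guidance genes were mixed: 21 of 30 tested genes rose and 7 fell (median log2 1.42). The netrin receptor DCC went from 1.5 ± 0.493 to 403 ± 7.21 CPM, the repellent SLIT1 from 2.27 ± 0.377 to 304 ± 2.69 CPM, and the ephrin receptors EPHA3 and EPHA5 rose by 6.54 ± 0.14 and 6.36 ± 0.10 on the log2 scale. SEMA3A and EFNA5 fell by 0.64 ± 0.04 and 0.43 ± 0.04.

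Progenitor genes moved in both directions (20 of 30 tested genes rose and 9 fell, median log2 1.27). The proteoglycan NCAN went from 0.504 ± 0.127 to 639 ± 5.05 CPM (log2 10.31 ± 0.06, adjusted p = 1.12e-19), PTPRZ1, a receptor phosphatase of radial glia, from 3.71 ± 0.697 to 1132 ± 24.2 CPM, and the membrane protein GPM6A from 3.53 ± 0.833 to 1114 ± 11.4 CPM. FABP7 rose from 0.446 ± 0.238 to 228 ± 3.35 CPM, while WT held 1124 ± 41.1 CPM, and SOX1 from 0.48 ± 0.125 to 56.2 ± 0.385 CPM, with 147 ± 6.74 CPM in WT. Of the intermediate filaments of progenitors, VIM fell from 2259.5 ± 12.3 to 1333 ± 15.97 CPM and NES from 661 ± 10.2 to 478 ± 14.1 CPM. WT held 2160 ± 104 CPM of VIM and 774 ± 4.75 CPM of NES, so for both the knockout lay nearer the WT level than KO+STAMBP did. SOX9 fell by 0.28 ± 0.04 on the log2 scale, a call lost with library size alone as the scaling (adjusted p = 3.22e-09 to 0.155 over the alternatives). The SOX genes as a family had 10 rises and 4 falls among 14 tested genes (median log2 1.61), and SOX11, a factor of newborn neurons, went from 70.3 ± 1.82 to 855 ± 5.56 CPM. SOX15 fell from 24.1 ± 1.61 to 1.41 ± 0.707 CPM and SOX7 from 15.2 ± 1.48 to 1.44 ± 0.298 CPM.

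Regional identity genes of the forebrain rose: 19 of 26 tested genes rose and 2 fell (median log2 3.72). Of the dorsal telencephalic factors, EMX1 went from 0.249 ± 0.108 to 113 ± 1.52 CPM and EMX2 from 0.37 ± 0.164 to 149 ± 3.19 CPM. ZIC1 went from 1.68 ± 0.369 to 92.9 ± 4.39 CPM. SIX3, of the anterior and eye field, fell from 45.1 ± 3.09 to 10.1 ± 0.33 CPM, and NR2F2 from 257 ± 4.61 to 57.7 ± 0.135 CPM. All 39 HOX genes in the table, which pattern the hindbrain and spinal cord, failed the filter on low counts, and the largest count of any of them in the 6 libraries was 10. Genes of the cortical hem, the dorsal midline that secretes WNT and BMP, and of the choroid plexus had 18 rises and 5 falls among 25 tested genes (median log2 2.12). TTR, the transthyretin gene of choroid plexus, had 1 knockout count and 329.7 ± 2.52 CPM in KO+STAMBP, a ratio of 21741 (higher in KO+STAMBP, 95% interval 3902 to 858810), against 19.1 ± 1.11 CPM in WT. The WNT agonist RSPO1 went from 0.0688 ± 0.138 to 74.3 ± 0.198 CPM, with 10.2 ± 0.0599 CPM in WT. Its relative RSPO2 went from 0.742 ± 0.247 to 143 ± 0.347 CPM, with 18.9 ± 0.765 CPM in WT. WNT8B and LMX1A, hem genes, rose by 9.16 ± 0.16 and 7.31 ± 0.19. CLIC6, a choroid plexus chloride channel, moved the other way and fell from 55.1 ± 3.21 to 11.9 ± 0.33 CPM, as did BMP4, from 26.3 ± 1.82 to 4.52 ± 0.337 CPM. FOLR1, another choroid plexus gene, was at 0.326 to 0.496 CPM in the knockout and 2.67 to 2.99 CPM in KO+STAMBP.

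Other neural cell types gave smaller lists. Markers of Cajal-Retzius cells, interneurons and other neurons had 16 rises and 4 falls among 23 tested genes (median log2 2.46). RELN, the secreted guide of cortical layering, went from 20.1 ± 2.37 to 212 ± 4.85 CPM and CALB2 from 7.55 ± 1.06 to 97.0 ± 0.18 CPM, while GAD2, which makes GABA, fell from 5.81 ± 0.337 to 3.04 ± 0.146 CPM. Astrocyte and oligodendrocyte markers had 10 rises and 5 falls among 18 tested genes (median log2 0.76). The astrocyte markers GFAP and ALDH1L1 were low in both groups and not called. GFAP was at 0.545 ± 0.0251 CPM in the knockout and 0.656 ± 0.0205 CPM in KO+STAMBP, and ALDH1L1 at 0.47 ± 0.177 and 0.444 ± 0.174 CPM. The nuclear factors NFIA, NFIB and NFIX rose by 6.11 ± 0.07, 6.60 ± 0.06 and 6.78 ± 0.13, and the glutamate transporter SLC1A2 went from 1.48 ± 0.394 to 283 ± 1.92 CPM. CD44, a hyaluronan receptor, fell from 186 ± 3.8 to 9.96 ± 0.936 CPM. MBP, a myelin protein gene, fell from 54.3 ± 0.697 to 1.76 ± 0.23 CPM. Markers of endothelium and blood had 2 rises and 7 falls among 9 tested genes (median log2 -3.95): their summed level was 66.5 to 70.4 CPM in the knockout and 7.84 to 8.98 CPM in KO+STAMBP. KDR fell from 25.4 ± 0.296 to 1.76 ± 0.379 CPM and CD68 from 19.5 ± 1.97 to 0.395 ± 0.121 CPM. PECAM1 was at 2.09 to 2.71 CPM in the knockout and 0 to 0.0516 CPM in KO+STAMBP. The 2 rises were TEK, from 1.2 ± 0.332 to 4.28 ± 0.146 CPM, and PTPRC, the leukocyte marker. PTPRC was at 0 to 0.132 CPM in the knockout and 0.748 to 0.877 CPM in KO+STAMBP. The part of these markers in the results was not tested. Markers of pluripotent cells, endoderm or mesoderm had 3 rises and 7 falls among 12 tested genes (median log2 -1.89). Their summed level was nevertheless higher in KO+STAMBP, at 128 to 129 CPM against 59.8 to 66.0 CPM in the knockout. Among the rises, EOMES went from 0.18 ± 0.0373 to 106 ± 0.166 CPM. POU5F1 and NANOG, of pluripotent cells, were at 0.529 to 0.881 and 0.231 to 0.331 CPM in the knockout and 1.44 to 1.5 and 0.258 to 0.428 CPM in KO+STAMBP.

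RNA-binding proteins that shape neuronal splicing rose (17 of 21 tested genes rose and 4 fell, median log2 3.36). ELAVL3 went from 0.61 ± 0.189 to 361 ± 6.83 CPM, ELAVL4 from 0.435 ± 0.164 to 172 ± 0.0908 CPM and CELF3 from 0.953 ± 0.141 to 329 ± 6.11 CPM. LIN28A, which blocks let-7 maturation in stem cells, fell from 21.9 ± 1.65 to 0.132 ± 0.0405 CPM, and the RNA-binding proteins of early development IGF2BP1 and IGF2BP3 by 1.82 ± 0.03 and 1.53 ± 0.04. Regulators of epithelial splicing and their partners had 2 rises and 5 falls among 7 tested genes (median log2 -1.03): ESRP1 went from 184 ± 2.31 to 0.13 ± 0.108 CPM and ESRP2 from 76.2 ± 4.91 to 0.606 ± 0.201 CPM. Of the BAF chromatin remodeler 14 of 19 tested genes rose and 5 fell (median log2 0.69). The subunits of the neuronal form were among the rises, with ACTL6B at 1 knockout count and 47.7 ± 0.871 CPM in KO+STAMBP, a ratio of 3147 (higher in KO+STAMBP, 95% interval 564 to 124376), and DPF1 going from 0.735 ± 0.236 to 89.9 ± 2.09 CPM, while the shared subunits ARID1A and SMARCC1 fell by 0.39 ± 0.04 and 0.45 ± 0.03. Neural and epithelial long noncoding RNAs had 13 rises and 5 falls among 18 tested genes (median log2 4.36). LINC00461 went from 0.086 ± 0.0942 to 397 ± 2.22 CPM (log2 12.06 ± 0.10, adjusted p = 5.21e-19), and MIR205HG fell to 2 counts in KO+STAMBP from 84.9 ± 2.06 CPM in the knockout, a ratio of 1618 (lower in KO+STAMBP, 95% interval 448 to 13366). NEAT1, which builds paraspeckles, fell from 715 ± 23.6 to 25.999 ± 0.807 CPM, and GAS5 from 165 ± 6.65 to 94.7 ± 2.25 CPM.

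**Figure D2:**
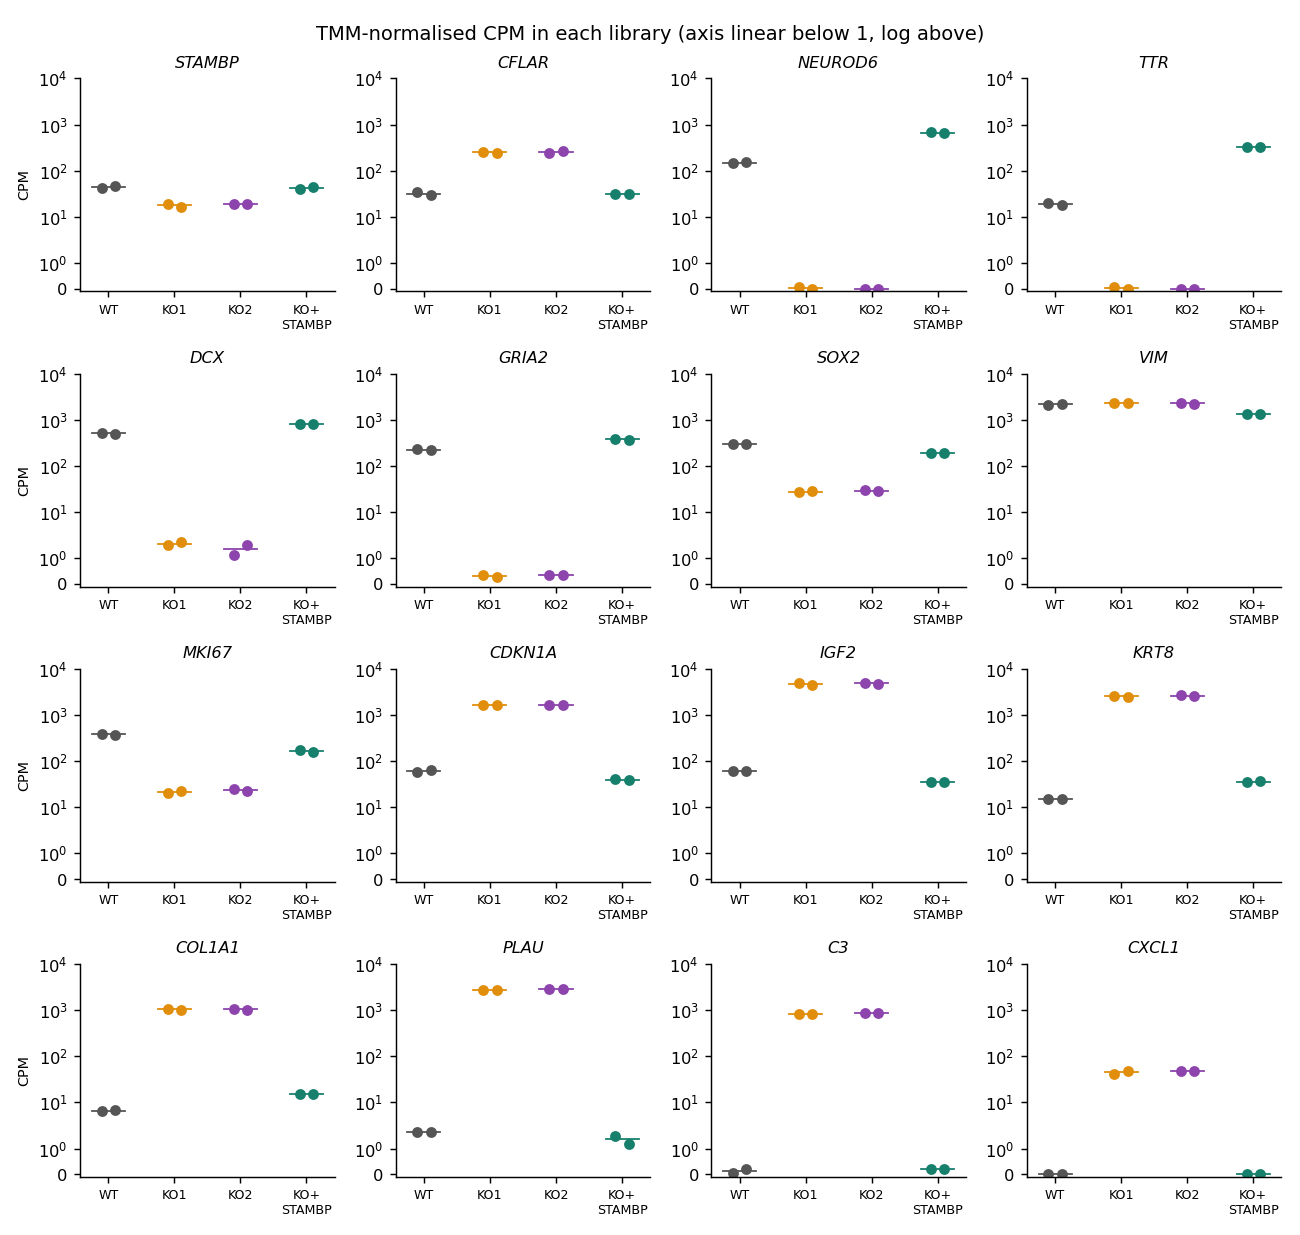
TMM-normalised CPM (y axis, linear below 1 and log above) of 16 genes in each WT, KO1, KO2 and KO+STAMBP library (x axis). Points are libraries and bars their means. The KO+STAMBP points do not overlap those of KO1 and KO2 for any of the genes shown.

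Genes of surface epithelium fell in KO+STAMBP, with few exceptions. Keratins had 2 rises and 15 falls among 17 tested genes (median log2 -3.81, or -3.47 with the 2 members at 3 counts or fewer set at the floor), and their summed level was 5602 to 5961 CPM in the knockout libraries and 93.3 to 94.7 CPM in KO+STAMBP. KRT8, a keratin of simple epithelia, was at 2524 and 2482 CPM in KO1, 2683 and 2539 CPM in KO2, and 34.8 and 36.4 CPM in KO+STAMBP, without overlap and with a log2 change of -6.17 ± 0.04. KRT19 went from 1298 ± 35.2 to 2.13 ± 0.0575 CPM, KRT18 from 1332 ± 25.5 to 13.3 ± 0.256 CPM and KRT7 from 351 ± 11.7 to 0.106 ± 0.0769 CPM. KRT1 and KRT5, keratins of stratified skin, were the exceptions: KRT1 had 3 knockout counts and 3.31 ± 0.00951 CPM in KO+STAMBP, a ratio of 72.7 (higher in KO+STAMBP, 95% interval 24.3 to 357). KRT5 rose from 1.25 ± 0.145 to 2.05 ± 0.0967 CPM, a call lost under some alternatives (adjusted p = 0.00494 to 0.196 over the alternatives). Cornified envelope genes, the outer skin barrier, had 0 rises and 16 falls among 17 tested genes (median log2 -6.28, or -5.69 with the 4 members at 3 counts or fewer set at the floor). SPRR2A had 198 ± 10.5 CPM in the knockout and 1 count in KO+STAMBP, a ratio of 7539.5 (lower in KO+STAMBP, 95% interval 1353 to 297817). SCEL went from 60.7 ± 0.475 to 0.264 ± 0.0809 CPM and TMEM40 from 55.3 ± 5.37 to 0.106 ± 0.0769 CPM. SPRR2 genes are near-identical copies, and how reads were split between them is not known.

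Cell junction genes fell, except CLDN10 among those called. For tight junctions and polarity 1 of 23 tested genes rose and 22 fell (median log2 -4.67), and for desmosomes and hemidesmosomes 0 of 21 tested genes rose and 21 fell (median log2 -6.23). CLDN4, a claudin that tightens epithelia, went from 1065 ± 20.1 to 3.58 ± 0.388 CPM (log2 -8.22 ± 0.06, adjusted p = 3.29e-19), and CLDN7 from 276 ± 8.05 to 0.208 ± 0.143 CPM. CLDN10 rose, from 0.239 ± 0.18 to 1.73 ± 0.0439 CPM. DSG2, a desmosomal cadherin, went from 2202 ± 58.1 to 24.9 ± 1.41 CPM. Of the hemidesmosome genes, COL17A1 went from 288 ± 6.56 to 0.445 ± 0.1 CPM and ITGB4 from 150.0 ± 5.89 to 0.86 ± 0.535 CPM. ST14, an epithelial serine protease, went from 391 ± 4.61 to 0.159 ± 0.0783 CPM, and the serpin SERPINB2 from 260.2 ± 8.8 to 0.605 ± 0.127 CPM. PRSS22 had 175 ± 7.01 CPM in the knockout and 2 counts in KO+STAMBP, a ratio of 3339.7 (lower in KO+STAMBP, 95% interval 924 to 27580). On that protease list 3 of 23 tested genes rose and 20 fell (median log2 -7.27, or -6.42 with the 5 members at 3 counts or fewer set at the floor).

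The transcription factors of epithelia fell with them: 1 of 27 tested genes rose and 26 fell (median log2 -6.65, or -6.59 with the 4 members at 3 counts or fewer set at the floor). ZNF750, an epidermal differentiation factor, had 28.8 ± 2.76 CPM in the knockout and 0 counts in KO+STAMBP, at least 365-fold lower. EHF had 3 KO+STAMBP counts, a ratio of 1786 (lower in KO+STAMBP, 95% interval 611 to 8664). GATA3 went from 77.8 ± 3.15 to 0.157 ± 0.0703 CPM. TFAP2C rose, from 28.6 ± 1.1 to 42.3 ± 2.94 CPM, and TFAP2A fell from 89.5 ± 3.5 to 0.866 ± 0.0152 CPM. Amnion and trophoblast markers, extraembryonic cell types with an epithelial program, had 1 rise and 10 falls among 12 tested genes (median log2 -2.36). VTCN1 went from 164 ± 5.3 to 2.04 ± 0.542 CPM and IGFBP3 from 217 ± 3.77 to 2.06 ± 0.795 CPM, and HLA-G had 3 counts in KO+STAMBP, a ratio of 82.4 (lower in KO+STAMBP, 95% interval 28.0 to 401). For S100 proteins and annexins 0 of 20 tested genes rose and 19 fell (median log2 -4.73), with S100A9 going from 562 ± 13.7 to 0.417 ± 0.212 CPM and S100A11 from 916 ± 71.6 to 4.03 ± 0.956 CPM, and ANXA2 from 2183 ± 46.0 to 80.8 ± 2.86 CPM. S100A8 was low in both groups and not called, at 0.946 ± 0.587 CPM in the knockout and 1.185 ± 0.29 CPM in KO+STAMBP.

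Matrix and adhesion genes mostly fell, though less evenly. Collagens had 4 rises and 16 falls among 21 tested genes (median log2 -1.36), integrin and laminin subunits 1 rise and 21 falls among 22 tested genes (median log2 -2.81), and matrix proteases 2 rises and 18 falls among 21 tested genes (median log2 -2.92). PLAU (ENSG00000122861, chromosome 10, 73909177 to 73917497, GRCh38), the urokinase that activates plasminogen, was at 2731 and 2746 CPM in KO1, 2837 and 2846 CPM in KO2, and 1.91 and 1.28 CPM in KO+STAMBP. This is a change of -10.76 ± 0.07 with no overlap of the groups. Of the fibrillar collagen I chains, COL1A1 went from 1030.3 ± 25.4 to 15.2 ± 0.283 CPM and COL1A2 from 1043 ± 10.2 to 68.7 ± 0.812 CPM. FN1, fibronectin, went from 3151 ± 89.3 to 154 ± 0.782 CPM. COL4A6 rose from 95.02 ± 3.43 to 207 ± 3.1 CPM and COL6A1 from 133 ± 4.53 to 207 ± 1.6 CPM. The gelatinase MMP9 went from 137 ± 2.99 to 0.314 ± 0.0663 CPM. MMP24, a neuronal membrane protease, rose from 2.44 ± 0.194 to 62.1 ± 0.211 CPM. Neural crest and mesenchyme markers had 8 rises and 11 falls among 20 tested genes (median log2 -1.01). ETS1 fell from 182 ± 3.35 to 0.26 ± 0.216 CPM and SNAI1 from 13.1 ± 1.83 to 0.452 ± 0.42 CPM. ZEB2 rose from 34.5 ± 2.32 to 247 ± 3.86 CPM and CDH11 from 30.2 ± 2.42 to 67.3 ± 0.412 CPM. The defining mesenchyme markers COL3A1 and TWIST1 were at 3.74 to 6.09 and 2.48 to 3.44 CPM in the knockout and 12.1 to 14.4 and 0 to 0.0535 CPM in KO+STAMBP.

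Most tested members of the inflammatory lists fell, some of them to 0 counts. The NF-kB list had 1 rise and 24 falls among 25 tested genes (median log2 -4.05). IL32, a cytokine, stood at 59.3 ± 2.36 CPM in knockout cells, against 0 counts in KO+STAMBP, at least 754-fold lower. BIRC3, which blocks caspase activation downstream of TNF receptors, went from 125 ± 3.25 to 0.287 ± 0.104 CPM. ICAM1, an adhesion receptor for leukocytes, went from 103 ± 3.08 to 0.499 ± 0.0498 CPM. CD83 rose from 6.01 ± 1.77 to 30.5 ± 3.42 CPM. Chemokines and interleukins had 3 rises and 19 falls among 23 tested genes (median log2 -5.80, or -5.78 with the 10 members at 3 counts or fewer set at the floor). CXCL1, a neutrophil attractant, was at 40.9 and 48.4 CPM in KO1, 47.1 and 48.7 CPM in KO2, and 0 and 0 CPM in KO+STAMBP, at least 587-fold lower. IL1B and CXCL8 had 0 counts in KO+STAMBP, at least 178-fold lower and at least 103-fold lower, and IL1A had 3, a ratio of 574 (lower in KO+STAMBP, 95% interval 196 to 2785). CXCL14 rose from 1.22 ± 0.473 to 10.5 ± 0.0796 CPM and IL33 from 0.0797 ± 0.0842 to 7.22 ± 0.146 CPM. PTGS2, the inducible cyclooxygenase, stood at 301 ± 0.828 CPM in knockout cells, against 3 counts in KO+STAMBP, a ratio of 3822 (lower in KO+STAMBP, 95% interval 1308 to 18534).

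Interferon-response and MHC class I genes had 0 rises and 31 falls among 32 tested genes (median log2 -3.47). The antiviral genes MX1, IFIH1 and OAS3 fell: MX1 went from 58.8 ± 2.63 to 1.29 ± 0.0788 CPM, IFIH1 from 57.2 ± 2.54 to 0.393 ± 0.0272 CPM and OAS3 from 48.7 ± 1.43 to 0.338 ± 0.251 CPM. OAS2 had 1 KO+STAMBP count, a ratio of 221 (lower in KO+STAMBP, 95% interval 39.5 to 8761). The inflammasome list had 1 rise and 17 falls among 20 tested genes (median log2 -3.52, or -3.18 with the 5 members at 3 counts or fewer set at the floor). CASP1 had 0 counts in KO+STAMBP, at least 67.9-fold lower, and CASP4 had 2, a ratio of 763 (lower in KO+STAMBP, 95% interval 211 to 6302), and RIPK3, of necroptosis, had 1, a ratio of 299 (lower in KO+STAMBP, 95% interval 53.5 to 11841). AIM2, a sensor of cytosolic DNA, rose from 0.64 ± 0.222 to 7.93 ± 0.022 CPM. Complement genes went in both directions (7 of 18 tested genes rose and 8 fell, median log2 -0.06), and their median was 0.15 with library size alone as the scaling. C3, the central complement protein, was at 832 and 814 CPM in KO1, 878 and 861 CPM in KO2, and 0.206 and 0.214 CPM in KO+STAMBP (log2 -11.93 ± 0.10), and CD55, which protects cells from complement, went from 70.0 ± 4.19 to 2.92 ± 0.705 CPM. C1QL3, a synaptic C1q-like protein, rose from 1.37 ± 0.364 to 18.9 ± 0.626 CPM and C5 from 0.958 ± 0.26 to 8.53 ± 0.267 CPM.

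The promoters of 3 genes that fell at least 16-fold are shown to illustrate the words searched below, and were picked because they hold a word and no GENCODE 29 exon: CXCL1 for chemokines, SERPINB2 for protease inhibitors and SPRR2A for the cornified envelope. The words searched, on both strands, were TGANTCA for AP-1, the NF-kB word (the match printed for CXCL1, with any base at the fifth position), AACCNGTT for Grainyhead factors, CAGATG for the E-box of NEUROD factors and TTCAGCACC for REST. The AP-1 word reads alike on both strands, a promoter was counted once per word, and words may overlap. Each sequence runs from 250 to 31 bases before the RefSeq start site (GRCh38.p14), 5′ to 3′ on the strand of the gene, with the words found in capitals.
CXCL1, chr4:73869143-73869362, plus strand: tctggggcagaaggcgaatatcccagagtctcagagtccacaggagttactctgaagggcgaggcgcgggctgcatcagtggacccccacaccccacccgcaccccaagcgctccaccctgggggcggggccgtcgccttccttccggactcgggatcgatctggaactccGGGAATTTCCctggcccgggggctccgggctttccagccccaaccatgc
SERPINB2, chr18:63887455-63887674, plus strand: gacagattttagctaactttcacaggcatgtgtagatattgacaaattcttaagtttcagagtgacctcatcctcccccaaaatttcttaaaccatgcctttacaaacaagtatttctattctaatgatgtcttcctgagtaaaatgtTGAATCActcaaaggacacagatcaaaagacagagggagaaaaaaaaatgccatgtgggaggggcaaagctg
SPRR2A, chr1:153057543-153057762, minus strand: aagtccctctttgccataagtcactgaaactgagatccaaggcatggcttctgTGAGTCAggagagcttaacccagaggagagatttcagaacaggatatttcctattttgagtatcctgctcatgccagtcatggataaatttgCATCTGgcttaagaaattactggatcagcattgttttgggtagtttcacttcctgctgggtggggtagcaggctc
CXCL1 holds GGGAATTTCC, whose first base lies 79 bases before the start. SERPINB2 holds TGAATCA, whose first base lies 102 bases before the start. SPRR2A holds TGAGTCA, whose first base lies 197 bases before the start and CATCTG, whose first base lies 105 bases before the start; CATCTG is CAGATG read on the other strand. As the genes were picked for holding a word, they are no evidence on how often words occur. A match describes the letters in this window and nothing about binding.

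Of 17544 tested genes with a usable symbol, 13265 had a promoter sequence. For the shares, all 250 bases before the start were searched, not only the stretch printed above. The AP-1 word was in 4.41% of these promoters. It was in 12.4% of the 653 whose genes fell at least 16-fold and 4.58% of the 612 whose genes rose at least 16-fold. The NF-kB word was in 0.573%, 2.76% and 0.817% of the same sets, which is 76, 18 and 5 promoters. The NEUROD E-box was in 8.77%, 10.6% and 12.7%. REST words were in 0.241%, 0.153% and 0.98%, which is 32, 1 and 6 promoters. Grainyhead words were in 1.23%, 1.23% and 1.47%, which is 163, 8 and 9 promoters. These shares are given without a test.

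**Figure D3:**
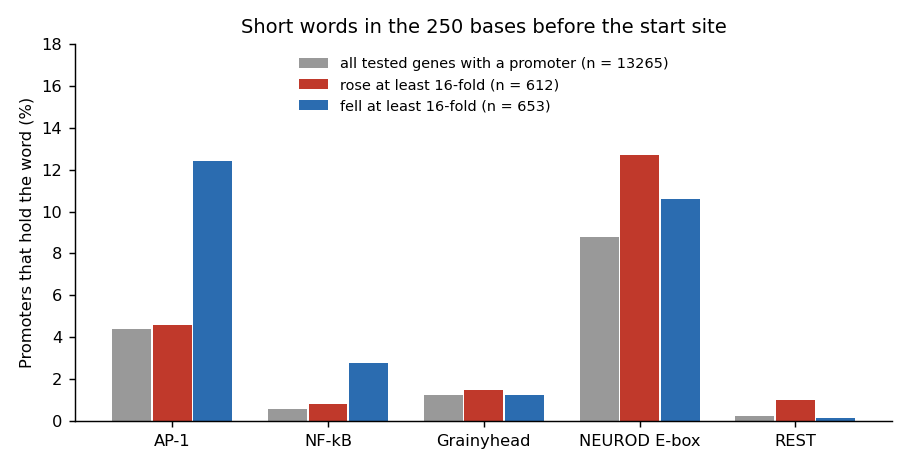
Share of promoters that hold each word (y axis, %) in all tested genes (grey), genes that rose at least 16-fold (red) and genes that fell at least 16-fold (blue). The AP-1 and NF-kB bars are tallest for genes that fell, at 12.4% and 2.76%, and the E-box bar is tallest for genes that rose, at 12.7%.

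Most cell death genes fell, among them genes that promote it and genes that oppose it. Death receptors and their complex had 1 rise and 19 falls among 21 tested genes (median log2 -2.98). TNFRSF10A, a TRAIL receptor, went from 19.7 ± 2.08 to 0.397 ± 0.27 CPM, the decoy receptor TNFRSF10D from 109 ± 3.6 to 5.06 ± 1.84 CPM, and FAS from 41.9 ± 2.24 to 1.97 ± 0.31 CPM. In the BCL2 family 2 of 18 tested genes rose and 14 fell (median log2 -1.62). Among BH3-only genes, which promote cell death, BIK went from 16.5 ± 2.01 to 0.183 ± 0.0325 CPM, PMAIP1 from 194 ± 7.97 to 3.65 ± 0.13 CPM and BMF from 300.0 ± 3.64 to 22.8 ± 1.69 CPM. BCL2, which opposes cell death, rose from 5.86 ± 0.899 to 52.2 ± 1.4 CPM. BIRC5, an inhibitor of apoptosis that acts in mitosis, rose from 9.65 ± 0.701 to 51.0 ± 1.34 CPM, and NAIP from 24.2 ± 3.11 to 78.3 ± 3.84 CPM. On the list of inhibitors of apoptosis and TRAF adaptors 4 of 16 tested genes rose and 11 fell (median log2 -0.58).

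All tested members of the list of p53 targets fell (0 of 30 tested genes rose and 30 fell, median log2 -1.92). CDKN1A, the cell cycle inhibitor p21, was at 1629.9 and 1616 CPM in KO1, 1631 and 1664 CPM in KO2, and 40.0 and 39.5 CPM in KO+STAMBP. The groups did not overlap, with a change of -5.36 ± 0.05. GDF15, a stress cytokine, went from 45.4 ± 2.64 to 0.392 ± 0.176 CPM. PERP, of desmosomes and cell death, went from 648 ± 13.9 to 34.8 ± 2.85 CPM. The unfolded protein and integrated stress responses had 2 rises and 24 falls among 26 tested genes (median log2 -1.62). ATF3, a stress transcription factor, went from 282 ± 3.57 to 4.83 ± 0.175 CPM. SLC7A11, the cystine transporter, went from 251 ± 11.5 to 11.3 ± 0.659 CPM. PSAT1, of serine synthesis, rose from 85.7 ± 4.53 to 151 ± 1.7 CPM. ASNS, of asparagine synthesis, rose from 42.2 ± 4.78 to 49.9 ± 0.853 CPM, a call lost under some alternatives (adjusted p = 8.77e-05 to 0.157 over the alternatives). NRF2 targets and metallothioneins had 0 rises and 20 falls among 21 tested genes (median log2 -3.01). HMOX1, of heme breakdown, went from 75.4 ± 2.49 to 2.49 ± 0.0482 CPM. Of the ferritin chains, FTH1 went from 4291 ± 35.9 to 968 ± 5.09 CPM and FTL from 3196 ± 97.9 to 341 ± 5.84 CPM. AP-1 and EGR early genes had 0 rises and 22 falls among 22 tested genes (median log2 -3.21), with FOSL1 going from 74.9 ± 1.09 to 0.21 ± 0.00532 CPM and KLF4 from 122 ± 3.91 to 3.07 ± 0.331 CPM. Metallothionein genes and FTH1 have near-identical copies or pseudogenes, so their counts are uncertain.

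Endosomal sorting genes, the pathway of STAMBP itself, mostly fell. The ESCRT list had 5 rises and 25 falls among 35 tested genes (median log2 -0.61), and its summed level was 3417 to 3459 CPM in the knockout libraries and 2149.9 to 2196 CPM in KO+STAMBP. CHMP4C went from 29.5 ± 1.28 to 0.943 ± 0.125 CPM, the ATPase gene VPS4B from 151 ± 5.29 to 41.4 ± 4.08 CPM, and EEA1, an early endosome tether, from 108 ± 25.1 to 26.1 ± 1.75 CPM. EEA1 was at 132 and 128 CPM in KO1, 86.2 and 86.4 CPM in KO2, and 27.3 and 24.9 CPM in KO+STAMBP, with KO1 above KO2. MVB12B rose from 12.7 ± 1.43 to 113 ± 4.95 CPM, and STAMBPL1, a STAMBP-related deubiquitinase, from 1.53 ± 0.183 to 5.62 ± 0.155 CPM. Lysosome and autophagy genes had 3 rises and 27 falls among 31 tested genes (median log2 -1.33). SQSTM1, the cargo receptor p62, went from 1428 ± 15.2 to 117 ± 0.847 CPM. Of the cathepsins, CTSB went from 941 ± 14.5 to 110.5 ± 5.44 CPM and CTSS from 26.3 ± 1.9 to 0.947 ± 0.172 CPM.

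**Figure D4:**
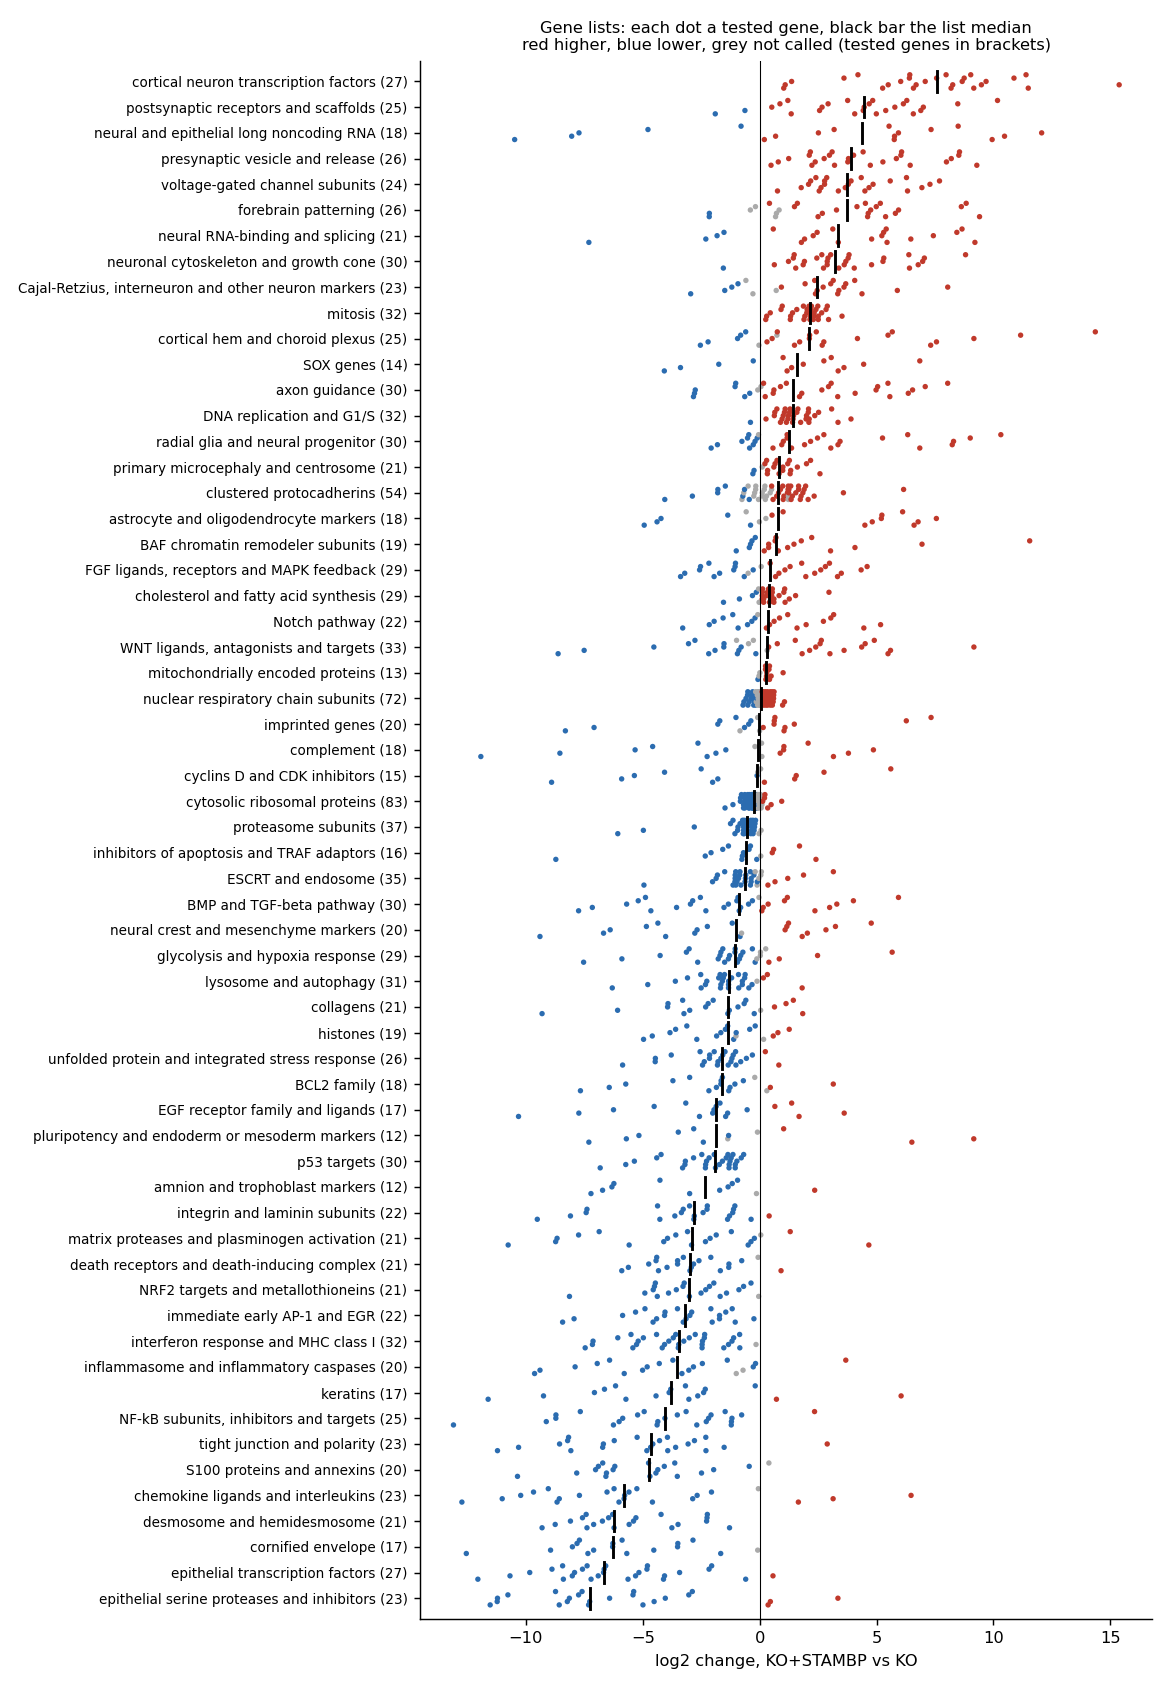
Log2 change of every tested member (dots) of gene lists with at least 10 tested genes (y axis, number tested in brackets), with black bars for list medians. Red dots are higher, blue lower and grey not called. The list of cortical neuron transcription factors lies far above the others, and the median of all genes is 0.04.

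Cell cycle genes rose. Mitosis genes had 32 rises and 0 falls among 32 tested genes (median log2 2.15), and DNA replication genes 31 rises and 1 fall among 32 tested genes (median log2 1.42). MKI67, a marker of cycling cells, was at 19.8 and 22.7 CPM in KO1, 24.8 and 22.2 CPM in KO2, and 170.2 and 160.5 CPM in KO+STAMBP, against 382 ± 13.9 CPM in WT. TOP2A, a DNA topoisomerase, went from 32.4 ± 0.964 to 249 ± 4.24 CPM, with 463 ± 1.58 CPM in WT. NUSAP1, of the spindle, went from 7.22 ± 1.29 to 82.0 ± 1.78 CPM, with 142 ± 3.98 CPM in WT. Of the factors that drive S phase genes, E2F1 went from 2.41 ± 0.544 to 24.4 ± 0.124 CPM and E2F2 from 0.99 ± 0.143 to 14.9 ± 0.0793 CPM. Cyclin CCNE1 fell from 8.31 ± 0.781 to 6.3 ± 0.286 CPM, a call lost under some alternatives (adjusted p = 0.00624 to 0.232 over the alternatives). Genes of primary microcephaly had 18 rises and 2 falls among 21 tested genes (median log2 0.83): ASPM and WDR62 rose by 2.18 ± 0.09 and 1.61 ± 0.09 on the log2 scale. The histone list had 3 rises and 14 falls among 19 tested genes (median log2 -1.37), and its members are mostly replication-dependent histones. The members that rose, H2AX, H3-3A and H2AZ1, encode variant histones, of which H3-3A and H2AZ1 are made independently of replication. Most histone transcripts carry no poly(A) tail and exist in near-identical copies, so their counts are uncertain.

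The regulators of the cycle went both ways (5 of 15 tested genes rose and 8 fell, median log2 -0.11), and their median was 0.10 with library size alone as the scaling. The inhibitors CDKN2A and CDKN2B fell, CDKN2B from 251 ± 9.22 to 4.18 ± 0.366 CPM and CDKN2A from 41.0 ± 0.22 CPM to 3 counts in KO+STAMBP, a ratio of 520.1 (lower in KO+STAMBP, 95% interval 178 to 2524). CDKN2C rose from 0.264 ± 0.122 to 12.7 ± 0.248 CPM and CDKN1B from 48.0 ± 1.47 to 142 ± 1.14 CPM. Cyclin CCND1 fell from 849 ± 19.5 to 50.5 ± 0.537 CPM.

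**Figure D5:**
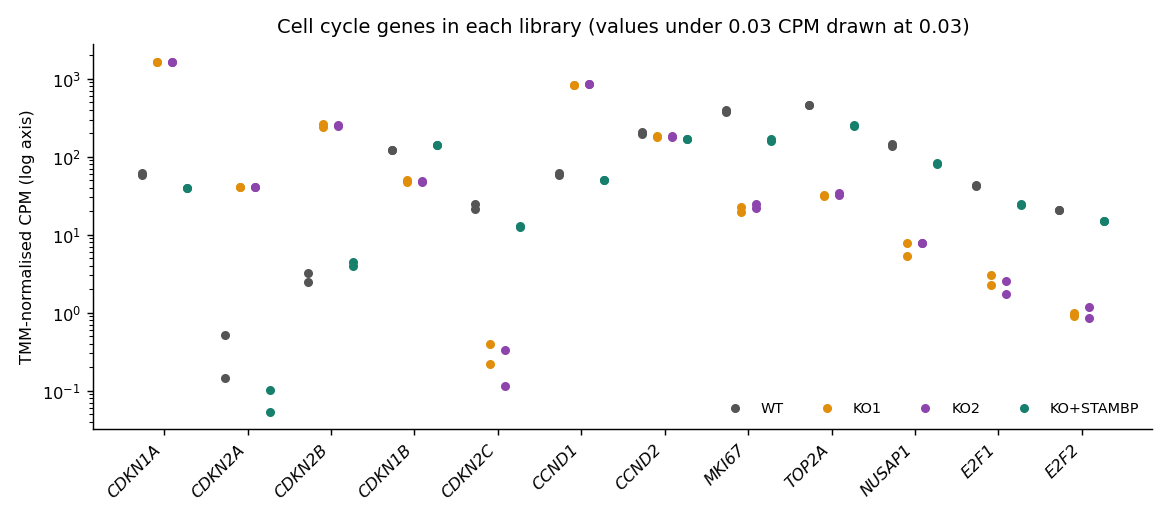
TMM-normalised CPM (y axis, log) of cell cycle inhibitors, D cyclins and proliferation genes (x axis) in each WT, KO1, KO2 and KO+STAMBP library (coloured points). CDKN1A, CDKN2A and CDKN2B lie lower in KO+STAMBP than in both knockout lines, while MKI67, TOP2A, NUSAP1, E2F1 and E2F2 lie higher.

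Signalling pathways gave mixed lists. The Notch pathway had 12 rises and 9 falls among 22 tested genes (median log2 0.35). The ligand DLL3 rose from 0.951 ± 0.276 to 33.8 ± 0.665 CPM, the Notch regulator DTX1 from 2.31 ± 0.265 to 51.0 ± 1.25 CPM and the target HES5 from 2.34 ± 0.298 to 19.4 ± 1.85 CPM. The ligand JAG1 fell from 456 ± 3.3 to 46.5 ± 2.4 CPM and the receptor NOTCH3 from 444 ± 16.3 to 115 ± 4.81 CPM. WNT genes had 16 rises and 13 falls among 33 tested genes (median log2 0.32): WNT7B went from 5.08 ± 0.415 to 152 ± 2.14 CPM, WNT3A from 0.125 ± 0.0967 to 5.07 ± 0.0912 CPM and SFRP2, a secreted antagonist, from 349 ± 4.43 to 51.2 ± 1.9 CPM, and WNT6 and WNT10A had 1 and 3 KO+STAMBP counts, a ratio of 496 (lower in KO+STAMBP, 95% interval 88.7 to 19599) and a ratio of 199 (lower in KO+STAMBP, 95% interval 67.7 to 964). BMP and TGF-beta genes had 10 rises and 19 falls among 30 tested genes (median log2 -0.90). Of the matricellular genes, CCN2 fell from 745 ± 4.0 to 5.21 ± 1.02 CPM and CCN1 from 366 ± 6.01 to 7.06 ± 0.0811 CPM, while ID4, a BMP target, rose from 25.1 ± 1.95 to 403 ± 5.3 CPM. FGF and MAPK feedback genes had 15 rises and 12 falls among 29 tested genes (median log2 0.45). FGF9 rose from 1.47 ± 0.245 to 30.2 ± 0.0901 CPM and FGF13 from 7.34 ± 0.804 to 82.1 ± 3.16 CPM. Among genes induced by MAPK signalling, DUSP5 fell from 174 ± 5.93 to 16.6 ± 1.81 CPM and ETV4 from 45.7 ± 0.576 to 4.94 ± 0.0507 CPM, with 146 ± 5.52 CPM of ETV4 in WT. EGF receptor genes had 4 rises and 13 falls among 17 tested genes (median log2 -1.86). The receptor EGFR fell from 260.2 ± 7.34 to 11.4 ± 0.102 CPM and ERBB3 from 142 ± 4.88 to 0.654 ± 0.169 CPM. The ligand AREG had 0 KO+STAMBP counts, at least 109.6-fold lower, and NRG3 rose from 2.34 ± 0.326 to 28.5 ± 0.202 CPM.

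Metabolic genes split by pathway. Glycolysis and hypoxia genes had 4 rises and 21 falls among 29 tested genes (median log2 -1.05). LDHA, which makes lactate, fell from 365 ± 14.1 to 41.5 ± 0.196 CPM, the lactate transporter SLC16A3 from 124 ± 2.03 to 2.07 ± 0.653 CPM and ADM from 103 ± 3.67 to 0.549 ± 0.172 CPM. The neuronal enolase ENO2 rose from 54.9 ± 3.45 to 306 ± 3.18 CPM. CA12, a carbonic anhydrase, rose from 1.15 ± 0.173 to 58.3 ± 1.18 CPM and lay at 454 ± 9.97 CPM in WT. Cholesterol and fatty acid synthesis had 23 rises and 4 falls among 29 tested genes (median log2 0.38), and 25 rises and 2 falls with library size alone. MVD, of the mevalonate pathway, rose from 32.1 ± 1.54 to 93.0 ± 0.726 CPM and the desaturase SCD from 202 ± 8.32 to 485 ± 0.669 CPM. Imprinted genes had 9 rises and 8 falls among 20 tested genes (median log2 -0.05), and their median was 0.17 with library size alone as the scaling. IGF2, a growth factor expressed from the paternal allele, fell from 4721 ± 202 to 34.7 ± 0.211 CPM, and H19, its maternal neighbour, rose from 0.061 ± 0.00547 to 10.8 ± 0.163 CPM; INS-IGF2 overlaps IGF2, so its reads and those of IGF2 cannot be told apart. NNAT rose from 12.4 ± 1.21 to 957 ± 7.96 CPM and PHLDA2 fell from 52.3 ± 4.86 to 0.157 ± 0.0703 CPM. Clustered protocadherins, surface labels of neurons, had 28 rises and 8 falls among 54 tested genes (median log2 0.77); these genes share sequence, and reads between copies are uncertain.

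Ribosomal, proteasome and respiratory chain genes had small median changes, and their counts of rises and falls depended on the scaling. Cytosolic ribosomal protein genes had 6 rises and 63 falls among 83 tested genes (median log2 -0.26), and 25 rises and 32 falls with library size alone. Proteasome subunits had 0 rises and 35 falls among 37 tested genes (median log2 -0.57), and 2 rises and 28 falls with library size alone, and the immunoproteasome subunit PSMB8 fell from 14.6 ± 0.843 to 0.211 ± 0.0796 CPM. Mitochondrially encoded genes had 10 rises and 1 fall among 13 tested genes (median log2 0.29), with MT-ND6 going from 453 ± 17.6 to 905 ± 30.4 CPM, and 13 rises and 0 falls with library size alone. Nuclear respiratory chain genes had 30 rises and 16 falls among 72 tested genes (median log2 0.04), and 50 rises and 8 falls with library size alone.

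The changes were also described by gene class and size, without a test. Of 15697 protein-coding genes 83.9% were called, with 22.95% rising and 23.004% falling at least 2-fold. Of 3254 long noncoding genes 59.8% were called, with 31.4% rising and 16.4% falling. Among protein-coding genes with the longest genomic spans (over 105 kb), 270 rose and 92 fell at least 16-fold, and among those with the shortest spans (up to 10.5 kb) 173 rose and 245 fell. Over all 15697 protein-coding genes, the log2 change and the span had a Spearman rho of only 0.0606, across genes that are not independent replicates. Genes with a mean of at least 100 CPM over both groups fell more often than they rose, 58.0% against 34.6%. Their median log2 change was -0.27, near the size of the 0.21 that scaling by library size alone adds. This split was not computed under that scaling. Where a gene overlaps another or has an antisense partner, its reads cannot be assigned with certainty, since the sources used here give no strand setting.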

How the data were processed

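RNA-seq of 10 libraries from H1-derived cells was used, 2 in each of 5 groups set from the sample titles. Per the labels' protocols, RNA was extracted with Trizol and 1 ug of total RNA entered an Illumina TruSeq library. The authors deposited whole-number counts per gene, not normalised. Per the submitters' processing notes, the tools were RSEM 1.2.4, fastp 0.20.0 and DESeq2 and the genome GRCh38, also listed as hg38, without saying what each did. Annotation, strand setting and any rounding of the counts are not given in the sources used here. Library totals were 16495116 to 20832700 counts. Rows without a gene identifier (667 rows, 0.33% of counts) and 8314 rows with an assembled locus name entered the fit but are not named.

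From the counts, edgeR 4.0.16 (R 4.3.3) was fitted to all 10 libraries with TMM factors, its expression filter by group, 1 mean per group (5 residual degrees of freedom) and quasi-likelihood tests, adjusted by Benjamini-Hochberg over 21063 genes. The contrast was KO+STAMBP minus the mean of KO1 and KO2. Genes were called at an adjusted p under 0.05. The SE is the log2 change divided by the square root of its F statistic. A ratio that rests on 1 to 3 counts in a group carries an exact 95% interval on the counts. The script was tested on simulated data in which few genes changed. Most genes were called here, so that test does not check the scaling under such broad change. Both libraries of every group differed by more than sampling noise, and none was treated as a duplicate.

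Named were CFLAR, STAMBP, the 15 largest changes in each direction with at least 20 CPM in the higher group, the most abundant genes changed at least 4-fold, the most abundant genes not called, and members of 63 gene lists by size of change with at least 5 CPM, members against the list's direction and members not called. The text leaves some of these out, and some genes are not reported here. Cell type markers and HOX genes are named besides. The members, lists and rules were chosen with earlier results of these data known. Gene positions come from GENCODE 29 (GRCh38) and promoters from RefSeq (GRCh38.p14), those of 1 chromosome not used here. The promoters shown were chosen after their values and words were seen. Alternatives were median-of-ratios factors, DESeq2 1.42.0, other count filters, library size alone, a replicate block, fewer libraries in the fit, KO1 or KO2 alone as baseline, and leaving out each library.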

Additional observations from a re-analysis of the deposited data

Results flagged for a closer look

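EEA1, the early endosome tether, stood out because its change differed between the 2 knockout lines used as baseline. It was at 132 and 128 CPM in KO1, 86.2 and 86.4 CPM in KO2, and 27.3 and 24.9 CPM in KO+STAMBP. KO1 lay above KO2 by 0.59 ± 0.06 on the log2 scale (edgeR's quasi-likelihood test, adjusted p = 0.000477). The log2 change in KO+STAMBP was -2.31 against KO1 alone and -1.72 against KO2 alone, lower in both KO+STAMBP libraries than in every knockout library. Over all tested genes, 33 differed between KO1 and KO2 at an adjusted p under 0.05.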

How the results depend on the processing

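Every alternative kept the number of called genes and of genes changed at least 2-fold within 1.5 times the values given. Called genes numbered 16415 with median-of-ratios factors, 14812 with DESeq2, 17172 without a filter, 13896 with at least 50 counts in 2 libraries, 16012 from the 6 libraries alone and 16544 with library size alone. Of the last, 15149 were called in the same direction as before and 36 in the opposite one, and no other alternative gave an opposite call. Leaving out 1 library at a time gave 15203 to 16400 called genes and 9440 to 9968 at least 2-fold. Where 1 KO+STAMBP library was left, it was assumed to vary like the other groups.

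Replicate numbers are shared between groups but the labels do not say what they mark, and same-numbered libraries of the groups compared deviated together with r of 0.0265 to 0.0603 across 12782 genes. The fit with a replicate block called 16356 genes, 9754 of them at least 2-fold.

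Of 245 genes among those named, 239 kept their call and direction under every alternative that gave a value. Of the rest, the text marks only SOX9, KRT5, ASNS, CCNE1 and PAX6. Over 3916 pairs of a gene and an alternative, 23 lost the call and 1 reversed. With library size alone, PAX6 turned to 0.10 on the log2 scale, from -0.11, and the list median of cyclins and CDK inhibitors to 0.10. Medians near 0 turned positive for complement genes at 0.15 (library size alone), 0.084 (the 50-count filter), 0.13 (KO1 alone), and ran from -0.39 to 0.030 when 1 library was left out. For imprinted genes they were 0.17, 0.15, 0.094 (KO2 alone), and ran from -0.18 to 0.11 when 1 library was left out. The cause was not tested. Over the lists, 12 of 992 medians changed sign. Another 107 moved by more than the SD of the list median over all pairings of a KO+STAMBP with a knockout library. These pairings share libraries and take in both knockout lines. Of 1984 list counts of rises or falls, 49 moved by over 1.5 times. With library size alone the other list medians that moved by over 1.5 times were -0.40 for ESCRT, 0.57 for Notch, 0.53 for WNT, 0.59 for cholesterol, -0.36 for inhibitors of apoptosis, -0.35 for proteasome, 0.50 for mitochondrially encoded and 0.25 for respiratory chain genes, and -0.043 for ribosomal proteins. Depth limits genes at 0 counts, whose folds are lower bounds, and groups of 2 libraries limit the error of every mean.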

Other observations

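Several of the largest changes lie outside the gene groups described above. MUC16, a mucin of the surface of wet epithelia, went from 403 ± 26.5 to 0.236 ± 0.0312 CPM and had 0.306 ± 0.225 CPM in WT. MLPH, which links pigment granules to a motor protein, stood at 28.6 ± 0.566 CPM in knockout cells, against 0 counts in KO+STAMBP, at least 363-fold lower. CD24, a surface glycoprotein, was among the most abundant genes that fell at least 4-fold, from 2375 ± 67.2 to 541 ± 6.19 CPM. In the other direction, SEZ6, a neuronal membrane protein, went from 0.089 ± 0.0599 to 199 ± 5.69 CPM, with 91.4 ± 3.81 CPM in WT. SLA, an adaptor of receptor signalling, had 2 knockout counts and 152 ± 6.31 CPM in KO+STAMBP, a ratio of 5026 (higher in KO+STAMBP, 95% interval 1391 to 41507), with 51.5 ± 0.887 CPM in WT. RHBDL3, of the rhomboid family, had 0 knockout counts and 36.3 ± 0.306 CPM in KO+STAMBP, at least 798-fold higher, with 41.4 ± 2.26 CPM in WT.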
